A study of Mus musculus with 16 samples.

Results

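The interval chr15:61500001-63500000 (mouse build mm8) holds Myc and its neighbour Pvt1, and was described as all 400 of its 5 kb windows, of 492512 such windows on chr1 to chr19. The windows were taken by position, not by signal, and 399 of them held at least 1 read of a control library. The other 20300 windows of chromosome 15, of which 19480 held a control read, served as the background. Myc is a transcription factor that pairs with Max on DNA and is induced early when resting lymphocytes are activated. RNA polymerase II, the enzyme that makes messenger RNA and most long non-coding RNA, gathers at active promoters and spreads along genes as they are read, so that its ChIP signal combines narrow summits with broad stretches. Pvt1 is a long non-coding RNA gene, and in the RefSeq order of build GRCm38.p6 it is the gene that follows Myc. An annotation of mm8 was not used here, so single windows were not assigned to exons, introns or promoters.

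The data were 16 libraries of sequenced, immunoprecipitated chromatin from mouse spleen cells, and the level of a window is given as RPM, its reads per 1000000 reads of the library on chr1 to chr19. Resting B cells (B0) had 1 Myc and 1 IgG library. B cells given lipopolysaccharide (LPS, a bacterial B cell activator) at 25 ug/ml for 4 h (B4) had 2 Myc, 3 IgG and 1 RNA polymerase II (Pol2) library. The same LPS treatment with 10058-F4, a small molecule that disturbs the pairing of Myc with Max, had 1 Myc, 2 IgG and 1 Pol2 library. Its dose was not given in the sources used here. T cells stimulated with the plant lectin concanavalin A (ConA, a T cell mitogen) at 7.5 ug/ml had 1 Myc and 1 IgG library each at 4 h (T4) and 14 h (T14). IgG libraries are made with an antibody that has no intended target and give the background. The series' design text names anti-EGFP antibodies for the precipitation, so the Myc libraries read an EGFP tag as far as that text goes. As background, the study is known for mice whose own Myc gene is fused to EGFP. Genotype, strain and age were not given, and the mark "wt" on the B4 Pol2 library and on 1 B4 IgG library was not explained. Cell purity could not be checked here, because the files list reads without gene names. Nothing states that replicate libraries came from separate animals, so their spread may be technical.

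Each library kept between 1278471 and 7433203 reads on chr1 to chr19, and a typical window of chromosome 15 held only 3 reads in the B4 Pol2 library and 4 with 10058-F4. Intervals in brackets are exact binomial 95% intervals, and they cover counting error only. The first B4 Myc and first B4 IgG library, with reads of 24 to 30 bases, stood far apart from the others at 1 window of the interval. They differed beyond that window too, and some results that include them are also given without them. The 14 h T cell files carry opposite antibodies in their titles and their file names, so those libraries are named by their titles and entered no test. The mean level of the interval over that of the rest of chromosome 15 was 1.46 in both of the first B4 libraries. Without the window at which they stood far apart it was 1.39 for Myc and 1.36 for IgG. Over the 6 libraries with reads of 24 to 30 bases, the ratio with all windows ran from 1.09 to 1.46. Over the 8 Myc and IgG libraries with reads of 45 bases it ran from 0.79 to 1.08. The part of read length in this was not tested.

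RNA polymerase II was concentrated towards one end of the interval. The window chr15:61815001-61820000 held 519 Pol2 reads (218 RPM) in B4 cells and 872 reads (170 RPM) with 10058-F4. Among all 20700 windows of chromosome 15, none was higher in either library, and on chr1 to chr19 only 5 windows were higher in B4 cells and 21 with 10058-F4. The window stood at 173 times the chromosome 15 median without the compound and at 218 times with it. Without this window the mean Pol2 level of the interval over the rest of chromosome 15 dropped from 1.46 to 1.21 in B4 cells and from 1.21 to 1.02 with 10058-F4.

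The same window was where the first B4 Myc and IgG libraries stood far apart from the others. The first B4 Myc library had 147 reads there (68.6 RPM), against 12 reads (3.87 RPM) in the second. The first B4 IgG library had 283 reads (84.0 RPM), against 11 reads (8.60 RPM) in the IgG library marked wt and 21 (4.10 RPM) in the one marked as a repeat. The high values were therefore shared by an antibody library and its control, and the control was the higher of the pair. The other libraries were far lower. Resting B cells had 10.1 RPM in the Myc library and 7.55 RPM in the IgG library. T cells at 4 h had 6.77 RPM in the Myc library and 17.5 RPM in the IgG library.

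Within the window, the reads of these 2 libraries lay in 2 sharply bounded blocks, chr15:61817001-61818000 and chr15:61819001-61819750, defined as runs of 250 bp bins with at least 20 reads in the 2 libraries together. The blocks held 70 and 61 reads of the first B4 Myc library and 124 and 137 of the first B4 IgG library. The 1 kb between them held 3 reads in each. Together the blocks took 89.1% [82.9, 93.6] of the window's reads in the Myc library and 92.2% [88.5, 95.1] in the IgG library. The share was 38.5% [34.3, 42.9] for Pol2 in B4 cells and 36.0% [32.8, 39.3] with 10058-F4. In resting B cells it was 44.0% [32.5, 55.9] for Myc and 45.2% [27.3, 64.0] for IgG, and the remaining libraries ran from 7.7% to 76.5% on 11 to 37 reads each. The blocks were chosen after their values were seen, and the cause of the pile-up was not tested. Pol2 was also sparse between the blocks, with 15 reads in B4 cells and 27 with 10058-F4.

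**Figure D1:**
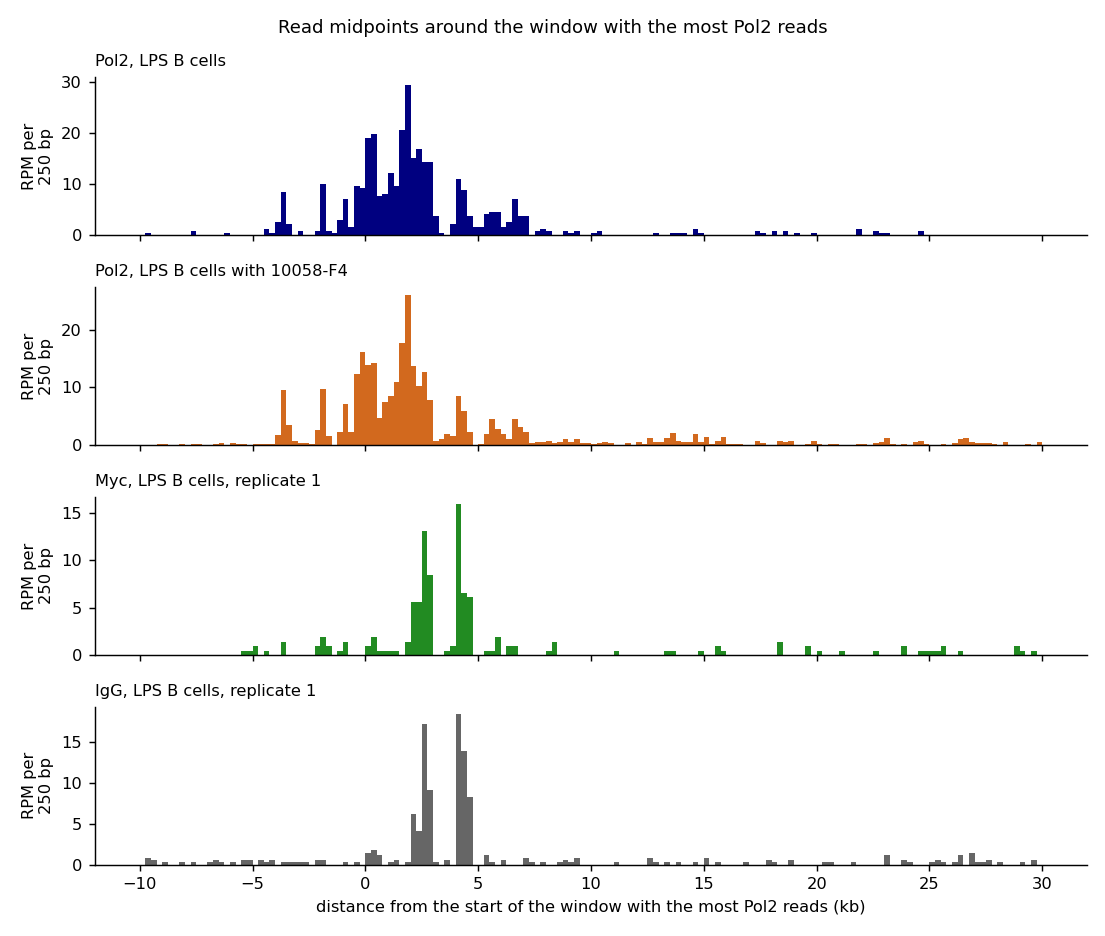
Read midpoints in 250 bp bins (y axes, RPM, each panel with its own scale) against distance from the start of the window with the most Pol2 reads (x axis, kb), in 4 libraries. Pol2 spreads over several kilobases in both libraries, while the first B4 Myc and IgG libraries share 2 narrow blocks.

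**Figure D2:**
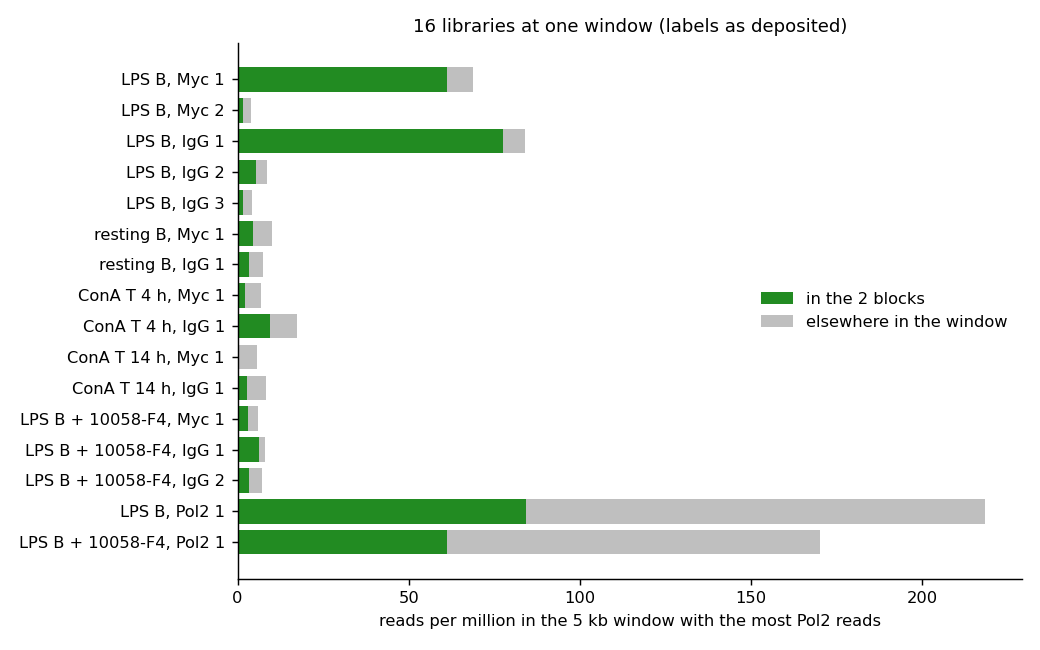
RPM (x axis) in the window with the most Pol2 reads for all 16 libraries, split into reads in the 2 blocks (green) and elsewhere in the window (grey). Apart from Pol2, the first B4 Myc library at 68.6 RPM and the first B4 IgG library at 84.0 RPM exceed all others, whose highest value is 17.5 RPM.

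At 250 bp resolution, with 5′ ends moved 75 bases along the strand, the highest Pol2 bin of the interval was chr15:61816751-61817000. The 1250 bp around it held 223 reads (93.8 RPM) in B4 cells and 407 reads (79.3 RPM) with 10058-F4, a log2 ratio with over without the compound of -0.24 [-0.48, 0.00]. The second summit in order lay far along the chromosome, at chr15:62011001-62011250, with 122 reads (51.3 RPM) and 256 reads (49.9 RPM), a log2 ratio of -0.04 [-0.36, 0.28]. A summit just before the highest one, at chr15:61815251-61815500, held 154 and 291 reads and had a log2 ratio of -0.19 [-0.48, 0.10]. Of the 8 highest summits at least 1 kb apart, 5 lay in the domain of the top window and 3 in the long domain after it. The one at chr15:62095251-62095500, near the far end of the long domain, held 29 reads (12.2 RPM) in B4 cells and 105 reads (20.5 RPM) with 10058-F4, a log2 ratio of 0.75 [0.14, 1.39]. It was the single summit of the 8 whose interval lay wholly above 0.

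A Pol2 domain was defined as a run of windows at or above 3 times the chromosome 15 median of the same library, joined over gaps of at most 1 window. The threshold came to 3.79 RPM, or 9 reads, in B4 cells and 2.34 RPM, or 12 reads, with 10058-F4. In B4 cells 63 of the 400 windows (15.8%) passed, against 12.3% on the rest of chromosome 15. With 10058-F4 77 windows (19.2%) passed, against 17% on the rest. The shares were thus close to the background, slightly above it in each library. Most of these windows lay in domains of 4 windows or more, of which each library had 2. Domains per Mb numbered 6 in B4 cells, against 7.26 on the rest, and 7.5 with 10058-F4, against 8.01.

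The B4 windows formed 12 domains, of which 8 were single windows, and together they covered 330 kb and 66.8% of the interval's Pol2 reads. The domain of the top window, chr15:61810001-61840000, held 780 reads (328 RPM), which was 26.1% of the interval's reads. A second domain, chr15:61865001-62105000, spanned 240 kb and held 1038 reads (437 RPM), or 34.7% of the interval's reads. All 707 domains on the rest of chromosome 15 were shorter, the longest being 165 kb. In the long domain 45 of 48 windows passed the threshold, and its windows ran from 2.10 to 58.9 RPM with a median of 6.73 RPM, 5.33 times the chromosome 15 median. The 5 highest windows carried 32.4% of its reads. Its length rested on windows that were not all high over IgG. When Pol2 windows also had to reach 2-fold over the summed IgG libraries, 34 windows passed in B4 cells (8.5%), against 7.13% on the rest of chromosome 15. The longest domain was then 65 kb, and 9 of 579 domains on the rest were longer, up to 125 kb.

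With 10058-F4 there were 15 domains, and the longest, chr15:61805001-62105000, ran through both of these domains as 1 stretch of 300 kb. On the rest of chromosome 15, 1 of 780 domains was longer, at 370 kb. The 5 windows between the 2 B4 domains held 0, 3, 4, 4 and 7 reads in B4 cells and 31, 16, 12, 9 and 23 reads with 10058-F4. In RPM these were 0, 1.26, 1.68, 1.68 and 2.94 in B4 cells, and 6.04, 3.12, 2.34, 1.75 and 4.48 with 10058-F4. The joined stretch depended on the threshold, and with the RPM threshold of the B4 library the longest domain with 10058-F4 was 95 kb. It depended on depth too, since the 10058-F4 Pol2 library kept 5130471 reads on chr1 to chr19, against 2377368 in B4 cells. Thinned at random to the B4 depth, an alternative chosen after seeing the data, the 10058-F4 library had 19 domains, the longest of 250 kb. With the 2-fold requirement over IgG 36 windows passed, against 6.39% on the rest, and the longest domain was 40 kb, with 29 of 543 on the rest longer. Of the B4 Pol2 windows 55 (87.3%) were also Pol2 windows with 10058-F4, and these made up 71.4% of the latter. The shares on the rest of chromosome 15 were 81.7% and 59.0%.

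The remaining B4 domains were small and weak. The largest of them, chr15:62180001-62190000, held 41 reads (17.2 RPM) in B4 cells and 43 reads (8.38 RPM) with 10058-F4. The other domain of 2 windows, chr15:62630001-62640000, held 22 reads (9.25 RPM) and 31 reads (6.04 RPM). The 8 single windows began at 61600001, 62135001, 62155001, 62260001, 62285001, 62330001, 62440001 and 63485001. They held 9 to 25 reads (3.79 to 10.5 RPM) in B4 cells and 6 to 32 reads (1.17 to 6.24 RPM) with 10058-F4. Their log2 ratios with over without the compound ran from -1.85 to -0.11. Only the intervals of 62135001 and 62440001 lay wholly below 0. These windows were chosen by their level in B4 cells, which favours ratios below 0. Beyond the long domain the B4 signal thus came in domains of 1 or 2 windows.

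**Figure D3:**
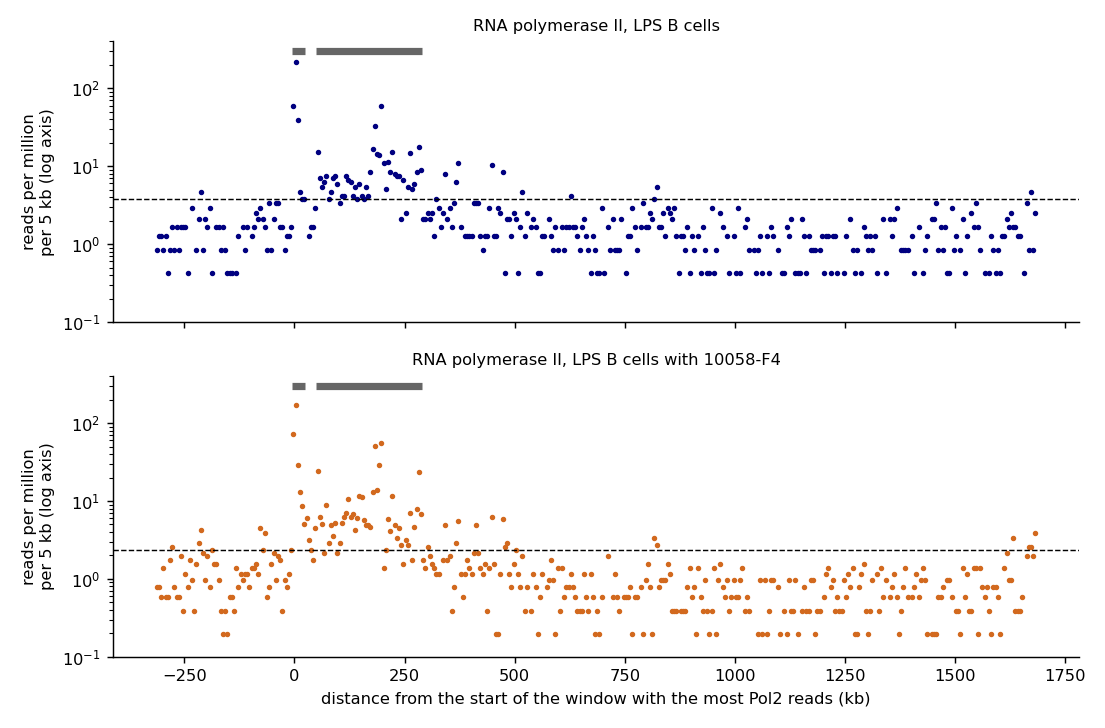
Pol2 level of each 5 kb window (y axis, RPM, log axis, windows with 0 reads not drawn) against distance from the start of the window with the most Pol2 reads (x axis, kb), in B4 cells and with 10058-F4. The dashed line is the domain threshold of each library, and the grey bars are the 30 kb and 240 kb domains found in B4 cells. In the 240 kb domain 45 of 48 windows reach the line in B4 cells and 43 with 10058-F4.

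The effect of 10058-F4 on Pol2 was read from 1 library on each side, so there is no replicate check and no test. The Pol2 libraries differed in their background: the median window of chromosome 15 was 1.26 RPM in B4 cells and 0.78 RPM with 10058-F4. Scaling by background windows in place of all reads moved the median log2 ratio of the rest of chromosome 15 from 0.11 to 0.61, so ratios are read relative to that median. Among 72 windows with at least 20 summed Pol2 reads, the median log2 ratio of the interval was -0.14, with quartiles of -0.78 and 0.54. The difference from the rest of chromosome 15 was -0.25, which scaling cannot change because it shifts every log2 ratio by the same amount. When IgG was subtracted the difference was -0.54. By count, 15 of the 72 windows (20.8%) were at least 2-fold lower with 10058-F4, against 10.4% on the rest. At least 2-fold higher were 6 (8.33%), against 14.4%. With scaling by background windows these counts became 4 lower (5.56%), against 3.77% on the rest, and 19 higher (26.4%), against 32.1%. With either scaling the interval had a larger share of lower windows and a smaller share of higher windows than the rest.

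The ratio was uneven along the interval. The top window had a log2 ratio of -0.36 [-0.52, -0.20], which became 0.13 with scaling by background windows. The domain around it held 1523 reads (297 RPM) with 10058-F4 and had a ratio of -0.14 [-0.27, -0.02], or 0.35 with that scaling. As the median of the rest of chromosome 15 went from 0.11 to 0.61 with that scaling, both lay below it in either case. The long domain as a whole held 2177 reads (424 RPM) and had a ratio of -0.04 [-0.15, 0.07]. Inside it, however, the 2 sides of its highest window differed. The first 150 kb, chr15:61865001-62015000, end with that window and held 678 reads (285 RPM) in B4 cells and 1667 reads (325 RPM) with 10058-F4. Their log2 ratio was 0.19 [0.06, 0.32], an interval that includes the median of the rest of chromosome 15. The last 90 kb, chr15:62015001-62105000, held 360 reads (151 RPM) and 510 reads (99.4 RPM), a log2 ratio of -0.61 [-0.80, -0.41]. The boundary was chosen after seeing these ratios, so the values are a description.

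In the last 90 kb the median window had a log2 ratio of -0.86, and 8 of 18 windows were at least 2-fold lower. Windows on the rest of chromosome 15 with the same range of summed reads, 19 to 161, had a median of 0.01, and 323 of 2758 of them were at least 2-fold lower. The last 90 kb were cut from a domain called in B4 cells, at a boundary chosen from these ratios. Both choices favour low ratios there, and the windows on the rest were chosen in neither way, so the comparison is a description. The window with the lowest ratio of the interval was the first of this stretch. It is chr15:62015001-62020000, with 26 reads (10.9 RPM) in B4 cells and 7 reads (1.36 RPM) with 10058-F4, a log2 ratio of -3.00 [-4.45, -1.76]. It adjoins the highest window of the long domain, chr15:62010001-62015000, which stood at 58.9 RPM and 55.0 RPM, a ratio of -0.10 [-0.40, 0.20]. The counting intervals of these neighbouring windows did not overlap, but chr15:62015001-62020000 was picked as the lowest ratio among 72 windows. Such intervals cover counting error only, with 1 library on each side, so the difference is a description. The next lowest ratios were those of the windows starting at 62060001 (16 and 8 reads, -2.11), 61880001 (15 and 11 reads, -1.56), 62080001 (12 and 9 reads, -1.52) and 61910001 (14 and 11 reads, -1.46).

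Of the 5 highest ratios, 3 lay within 30 kb of the top window. The window chr15:61840001-61845000, just past its domain, had 0 reads in B4 cells and 31 reads (6.04 RPM) with 10058-F4. Its exact interval began at 3.67-fold, and against a floor of 3 reads the window was at least 4.79-fold higher. The window chr15:61825001-61830000 had 11 reads (4.63 RPM) and 66 reads (12.9 RPM), a log2 ratio of 1.48 [0.54, 2.55]. The next window, chr15:61830001-61835000, had 9 reads (3.79 RPM) and 44 reads (8.58 RPM), a ratio of 1.18 [0.13, 2.40]. In the long domain, chr15:61965001-61970000 had 10 reads (4.21 RPM) and 58 reads (11.3 RPM), a ratio of 1.43 [0.45, 2.56]. The window starting at 61745001, with 4 and 20 reads, had a ratio of 1.21 [-0.37, 3.22], an interval that includes 0. On the other side of the top window, chr15:61810001-61815000 had 139 reads (58.5 RPM) and 367 reads (71.5 RPM), a ratio of 0.29 [0.01, 0.58]. That interval includes the median of the rest of chromosome 15.

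Among the other windows with the most Pol2 in B4 cells, chr15:61995001-62000000 had 79 reads (33.2 RPM) and 260 reads (50.7 RPM), a log2 ratio of 0.61 [0.24, 0.99]. The first window of the long domain, chr15:61865001-61870000, had 36 reads (15.1 RPM) and 124 reads (24.2 RPM), a ratio of 0.67 [0.13, 1.25]. The window after the top one, chr15:61820001-61825000, had 93 reads (39.1 RPM) and 148 reads (28.8 RPM), a ratio of -0.44 [-0.82, -0.05]. The window chr15:62075001-62080000, in the last stretch, had 35 reads (14.7 RPM) and 36 reads (7.02 RPM), a ratio of -1.07 [-1.78, -0.36]. The windows starting at 62095001, 61990001 and 62035001, with 36 to 42 reads in B4 cells, had intervals that included 0.

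**Figure D4:**
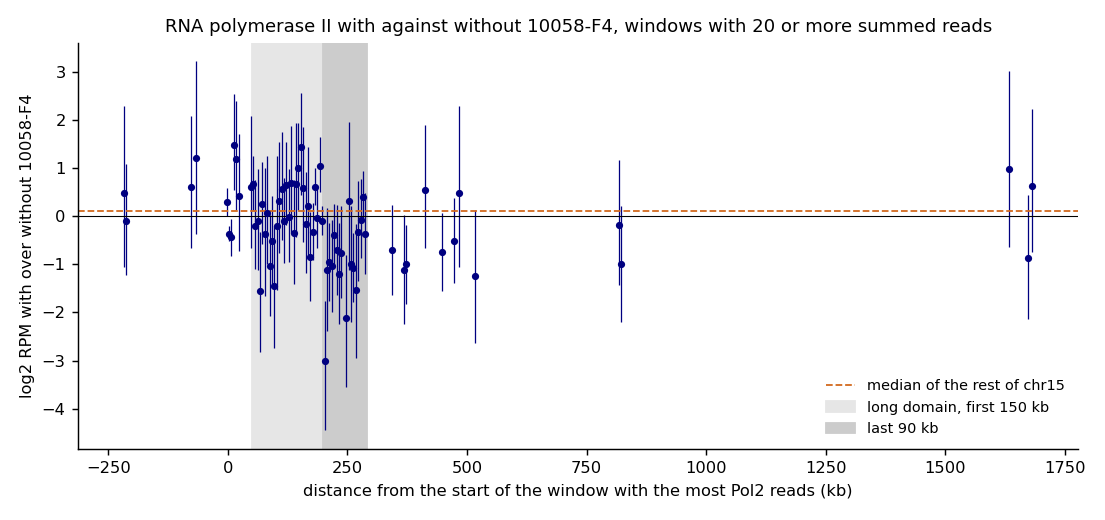
Log2 ratio of Pol2 RPM with over without 10058-F4 (y axis) for windows with at least 20 summed reads, against distance from the start of the window with the most Pol2 reads (x axis, kb). Points are windows, bars are 95% counting intervals, the dashed line is the median of the rest of chromosome 15 (0.11), and the window with 0 reads in B4 cells is not drawn. Of the 17 windows drawn in the last 90 kb of the long domain (dark band) 2 lie above 0, and of the 30 in its first 150 kb (light band) 14 do. The boundary between the bands was chosen after these ratios were seen, and the position of 0 depends on the scaling.

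Myc over IgG was then compared between windows with Pol2 in B4 cells and the other windows of the interval, since Pol2 windows were chosen without the Myc or IgG reads. The control libraries themselves were higher in Pol2 windows. In B4 cells the mean IgG level was 2.11, 2.74 and 1.28 times as high in Pol2 windows as in the other windows of the interval in the first library, the one marked wt and the repeat. The values were 2.16 in resting B cells, 2.28 and 1.61 with 10058-F4, and 1.26 in T cells at 4 h. The corresponding Myc libraries had 2.22 and 1.19 in B4 cells, 2.33 in resting B cells, 1.50 with 10058-F4 and 1.71 in T cells at 4 h. At 14 h in T cells the library labelled Myc had 0.833 and the one labelled IgG 1.57. All IgG libraries and all Myc libraries except the one labelled Myc at 14 h thus had more reads in Pol2 windows, and Myc was therefore read as a ratio to IgG.

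In the 63 Pol2 windows the first B4 Myc library had 778 reads and a fold of 1.49 [1.38, 1.62] over the 3 summed IgG libraries, and the second had 522 reads and a fold of 0.69 [0.63, 0.76]. The replicates lay on opposite sides of 1, and the result turned on the IgG library used. Over the first B4 IgG library the first Myc library had a fold of 1.04 [0.95, 1.14], and over the one marked wt and the repeat it had 1.57 and 2.06. The second Myc library had a fold of 0.95 [0.85, 1.06] over the repeat IgG library, with which it shares a mark in its title. Without the top window the folds over the summed IgG were 1.40 [1.27, 1.53] and 0.78 [0.71, 0.86]. On the rest of chromosome 15, the Pol2 windows had folds of 1.23 [1.21, 1.25] and 0.91 [0.89, 0.92]. No fold of Myc over IgG was thus shared by the B4 replicates in the Pol2 windows of the interval.

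In resting B cells the fold in these windows was 1.05 [0.97, 1.15] on 1622 Myc and 851 IgG reads, with 1.11 [1.09, 1.12] on the rest of chromosome 15. With LPS and 10058-F4 it was 0.87 [0.79, 0.96], with 1.07 [1.05, 1.08] on the rest. In T cells at 4 h it was 1.31 [1.17, 1.48] on 1211 Myc and 370 IgG reads, and 1.40 [1.24, 1.58] without the top window. The other windows of the interval had 0.97 [0.91, 1.03] in those T cells. The rest of chromosome 15 gave much the same pair of values, 1.32 [1.30, 1.35] in Pol2 windows and 0.94 [0.93, 0.95] in the others. At 14 h the library labelled Myc over the library labelled IgG had a fold of 0.67 [0.59, 0.76] in Pol2 windows, and 1.26 [1.19, 1.33] in the others. The labelled order thus ran opposite to that at 4 h, and with the titles exchanged the Pol2 windows would have 1.50 [1.31, 1.71]. These folds rest on 1 Myc library each.

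**Figure D5:**
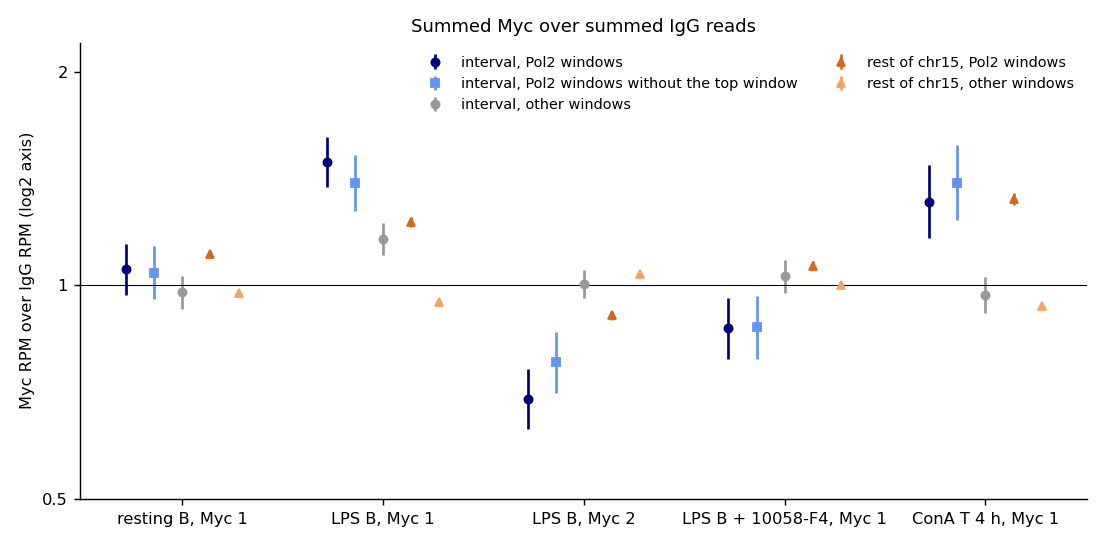
Summed Myc RPM over summed IgG RPM (y axis, log2 axis) in Pol2 windows and other windows of the interval and of the rest of chromosome 15, for 5 Myc libraries (x axis), with 95% counting intervals. In the Pol2 windows of the interval the 2 B4 Myc libraries lie on opposite sides of 1, at 1.49 and 0.69, and T cells at 4 h lie at 1.31.

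By domain, the 30 kb around the top window had folds of 1.91 [1.61, 2.26] and 0.35 [0.26, 0.46] in the first and second B4 Myc library. In resting B cells it had 1.16 [0.89, 1.51], and in T cells at 4 h 0.93 [0.66, 1.32]. The top window gave 147 of the domain's 198 reads in the first B4 Myc library. Of the 472 summed IgG reads below both B4 folds, 283 were those of the first IgG library in that window. At that window the second Myc library had 3.87 RPM and the repeat IgG library 4.10 RPM. No domain fold was computed without the first libraries. The long domain had 1.39 [1.26, 1.54] and 0.78 [0.70, 0.88] in B4 cells, 1.01 [0.92, 1.11] in resting B cells, 0.87 [0.77, 0.97] with 10058-F4 and 1.32 [1.15, 1.50] in T cells. In T cells the fold was above 1 beyond counting error in the long domain, while in the domain of the top window the interval included 1, and the 2 intervals overlapped. In the T cell IgG library the top window was among the highest of chromosome 15, with 1 window higher.

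Window by window, a call required at least 2-fold Myc over IgG on log2(RPM + 0.5) and at least 10 summed reads. In the first B4 Myc library 29 of 378 windows (7.67%) passed, against a background of 5.38% on the rest of chromosome 15, and in the second 11 of 381, against 3.82%. Leaving out the first IgG library raised the former count to 54, and leaving out the repeat raised the latter to 22. In resting B cells 17 of 336 windows passed, against 4.11%, and with 10058-F4 15 of 369, against 4.37%. In T cells at 4 h 51 of 348 passed, against 12.7%. At 14 h 34 of 321 passed as labelled, against 10.2%, and 31 with the titles exchanged, against 14.1%. Each of these shares lay within 5 percentage points of its background. Windows at least 2-fold under IgG numbered 22 (5.82%) in the first B4 library, against 13.9% on the rest, and 23 (6.04%) in the second, against 6.32%. In resting B cells they numbered 14, against 3.18%, with 10058-F4 35 (9.49%), against 6.44%, and in T cells at 4 h 21 (6.03%), against 9.01%. The first B4 library had fewer such windows than the background, and the 10058-F4 library had more of them and more than its 15 windows over IgG. Both B4 Myc libraries passed together in 1 of 377 windows, against 0.506%.

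That window, chr15:63030001-63035000, had 10 reads (4.67 RPM) and 11 reads (3.55 RPM) in the B4 Myc libraries and 6 (1.78 RPM), 2 (1.56 RPM) and 6 (1.17 RPM) in the IgG libraries. Both Myc levels were above each IgG level, but its limma log2 change of 1.48 (SE 0.53) had an adjusted p of 0.961. It held little Pol2, at 0.42 RPM. The next highest B4 windows began at 63205001, 62430001, 63195001 and 62790001, with 4 to 14 reads in a Myc library, and none of them was a Pol2 window. In resting B cells the highest ratio was at chr15:61855001-61860000, with 22 Myc and 3 IgG reads, a fold of 4.05 [1.22, 21.2]. The others began at 61630001, 63370001, 62205001 and 61845001 and had folds of 3.04 to 3.68 on 17 to 23 Myc reads. In T cells at 4 h the window chr15:61915001-61920000 had 23 Myc reads and 0 IgG reads, at least 3.07-fold higher against a floor of 3 reads, with an exact interval that began at 2.30-fold. The windows starting at 63440001, 62100001, 61710001 and 62035001 followed, with 21 to 23 Myc reads and 1 or 2 IgG reads. Of these T cell windows, 62100001 and 62035001 lay among the Pol2 windows of the long domain in B4 cells.

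Fitted with limma-voom over all windows of chr1 to chr19 and Benjamini-Hochberg adjustment, B4 Myc over IgG called 5 windows, or 0.00126%, and 0 of 368 tested windows of the interval. In the interval 13 windows (3.53%) had an unadjusted p under 0.05, against 4.42% on chr1 to chr19, and limma-trend called 0, with 9 at that level (2.45%, against 3.80%). The fitted log2 value of the top window was 0.27 (SE 0.59, adjusted p 0.975). It turned with single libraries, at -1.78 without the first B4 Myc library, 2.28 without the second, 1.30 without the first IgG library, -0.08 without the one marked wt and -0.64 without the repeat. Without the first Myc and first IgG library together it was -1.04, and the adjusted p of these fits ran from 0.414 to 0.998. The LPS contrast, Myc over IgG in B4 against resting cells, called 0 of 365 windows in the interval and 0% on chr1 to chr19. It had 10 interval windows (2.74%) at an unadjusted p under 0.05, against 2.68% on chr1 to chr19, and limma-trend called 0 with 10, against 2.88%. The 10058-F4 contrast called 0 of 365, and 0% on chr1 to chr19, with 12 at that level (3.29%, against 2.90%) and 16 by limma-trend (4.38%, against 2.73%), which called 0. The contrast of T cells at 4 h against B4 called 0 of 366, and 0% on chr1 to chr19, with 10 at that level (2.73%, against 4.02%) and 9 by limma-trend (2.46%, against 4.70%), which called 0. Groups with 1 library were assumed to vary like the replicated ones. Without the first B4 Myc and IgG libraries, the B4 fit, on a spread taken from 2 IgG libraries, called 2 of 366 interval windows higher (0.55%), against 0.883% on chr1 to chr19, and 6 lower (1.64%), against 2.82%. Both shares were below the background. The 6 lower windows all lay in the long domain, with log2 values from -1.75 to -1.33. The 2 higher ones, starting at 63005001 and 63080001, lay outside it, at 1.43 and 1.79.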

How the data were processed

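Per the submitters' processing notes, reads were processed with CASAVA 1.0 and Bowtie 0.12.7 on mm8. The deposited files list mapped reads of the authors, with start, end, strand and no other value, so the unit is other than a count and counts were made here. Reads sharing a 5′ end and strand were reduced to 1 (5.26% removed in the first B4 Myc library, at most 0.0796% elsewhere), and read midpoints were counted in 5 kb windows. Positions are printed as 1-based. Python 3.11.15 with scipy 1.17.1 gave ratios and exact intervals, and R 4.3.3 with limma 3.58.1 the fits, on windows with at least 20 (B4), 40 (B cells) or 28 (T against B) summed reads at a threshold of 0.05. Methods were checked on simulated data.

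Named windows are every Pol2 domain, the 10 with most B4 Pol2, the 5 with the highest and lowest Pol2 ratio (20 reads or more) and the 5 with the highest Myc over IgG in each of B4, resting B and T cells at 4 h (20 reads or more). The interval and its rules were chosen with earlier results of these data known. Replicates differed by more than sampling noise (chi-square per degree of freedom 1.41 to 1.87). Myc libraries were kept apart, but the IgG libraries of a state were summed for Myc folds unless a single one is named. The limma fits took each library on its own. The alternatives tried were other scalings, filters, pseudocounts, thresholds, window grids, all deposited reads and leaving out libraries. No Myc or Pvt1 sequence was used here.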

Additional observations from a re-analysis of the deposited data

How the results depend on the processing

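The number and length of the Pol2 domains moved with the threshold, the gap allowed and a requirement over IgG. At 2 times the chromosome 15 median B4 cells had 29 domains and 106 windows, and 10058-F4 had 26 domains and 117 windows. At 5 times the median the longest domains were 80 kb on 35 windows in B4 cells and 95 kb with 10058-F4. With no gap allowed they were 135 kb and 100 kb. When windows also had to reach 2-fold over IgG they were 65 kb on 34 windows and 40 kb on 36 windows. With the B4 RPM threshold, an alternative chosen after seeing the data, the longest with 10058-F4 was 95 kb. Of the log2 changes with 10058-F4, scaling by background windows gave 0.36 for the median of the interval, 0.13 for the top window, 0.35 for the 30 kb domain, 0.45 for the 240 kb domain and -0.11 for the last 90 kb, with 19 windows 2-fold higher and 4 lower. With that scaling the median of the rest of chromosome 15 was 0.61, above each of these log2 changes. Subtracting IgG gave 10 windows higher and -0.87 for the last 90 kb.

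Counts of Myc windows 2-fold over IgG are given in the order first and second B4 library, resting B cells, 10058-F4 and T cells at 4 h, and those within 1.5 times are left out. A pseudocount of 0.1 RPM gave 45, 17, 34 and 30 in the B cell libraries, and 1 RPM gave 4 in the second B4 library, 9 in resting cells and 9 with 10058-F4. At least 20 reads gave 6 in the second B4 library, then 7, 4 and 21. Windows of 10 kb, of which there are fewer, gave 13, 1, 5, 4 and 19. Scaling by background windows gave 5 in the second B4 library, and thinning gave 8 in resting cells. Leaving out each B4 IgG library gave 29 to 54 in the first B4 library and 7 to 22 in the second. Windows passing in both numbered 3, 0, 2 and 0 with a pseudocount of 0.1 RPM, 1 RPM, all deposited reads and 10 kb windows, and 1 to 6 without single IgG libraries. The fold in Pol2 windows ran from 1.15 to 1.94 in the first B4 library and from 0.53 to 0.90 in the second over the same exclusions, and without the top window it was 0.78 in the second.

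For B4 Myc over IgG, limma called 0 windows of the interval in every alternative but the last one below. On chr1 to chr19 it called 0 with limma-trend, 2 with scaling by background windows, 0 at 10 and 0 at 2 reads per library, 3 with all deposited reads, and from 0 to 53 when 1 library was left out. A replicate block for the libraries paired by their titles, without the "wt" IgG library, called 874 windows, against 16 in the same libraries without the block, and 0 in the interval in either fit. The deviations of the 2 title pairs correlated at 0.09, and the labels do not say that the pairs share a preparation. Without the first B4 Myc and IgG libraries, also chosen after seeing the data, the B4 fit called 14952 windows, 8 of them in the interval, and the contrast of T cells against B4 called 2, with 0 in the interval. The cause of these shifts was not tested. The other 187 values recomputed under alternatives kept their direction and their side of the threshold, or stayed within their error or within 1.5 times. Depth limits all single windows, since a typical one held 3 or 4 Pol2 reads.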
